A study of Mus musculus with 6 samples.

Results

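Fibroblast growth factor (FGF) receptors, the Klotho co-receptors and 3 FGF ligands were followed in muscle-derived stem/progenitor cells (MDSPCs) of young and old mice. The 10 genes were taken by name: the receptors Fgfr1, Fgfr2, Fgfr3 and Fgfr4, the receptor-like gene Fgfrl1, the co-receptors Kl and Klb, and the ligands Fgf2, Fgf7 and Fgf21. They are 10 of the 21485 genes present on the gene lists of all 6 deposited matrices, and all 10 were found. MDSPCs are the slowly attaching fraction of dissociated mouse skeletal muscle, obtained by passing the cells that had not attached from one collagen-coated flask to the next. The design compared 3 populations from young mice with 3 from old mice, all grown as proliferating cultures in serum-rich medium and profiled by droplet-based 3′ single-cell RNA sequencing. The labels give no treatment or genetic change for either group, and the age, sex and strain of the mice are not given in the sources used here. Each population is numbered as a biological replicate and is 1 sample. Whether a population came from 1 animal or from pooled animals is not given, so p-values measure the spread between these cultures.

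FGF ligands bind receptor tyrosine kinases on the cell surface, and the receptors then pass the signal through adaptor proteins to the Ras and MAP kinase cascade and to phospholipase C. Paracrine ligands such as FGF2 and FGF7 bind heparan sulfate and act near the cell that releases them, whereas endocrine ligands such as FGF21 circulate and need a Klotho protein beside the receptor. In muscle, FGF2 is a classical mitogen for myoblasts that delays their differentiation, and FGF21 is known as a hormone that stressed muscle can release.

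The upstream sequences of the ligands Fgf21 and Fgf7 are shown because these genes moved in opposite directions between classes of cells of the same culture, as described further on. Fgf21 lies on the minus strand at chr7:45613886-45615490 of GRCm38, and Fgf7 on the plus strand at chr2:126034658-126091185. Each line is the 250 bases before the RefSeq transcription start on GRCm38.p6, 5′ to 3′ on the gene's own strand, at chr7:45615491-45615740 for Fgf21 and chr2:126034408-126034657 for Fgf7. Capitals mark matches to the E-box CANNTG, the core bound by basic helix-loop-helix factors such as myogenin, and to TGATGNAA, a form of the element bound by the stress factor ATF4. Both motifs were searched on both strands, and no match of one overlapped a match of the other.
Fgf21: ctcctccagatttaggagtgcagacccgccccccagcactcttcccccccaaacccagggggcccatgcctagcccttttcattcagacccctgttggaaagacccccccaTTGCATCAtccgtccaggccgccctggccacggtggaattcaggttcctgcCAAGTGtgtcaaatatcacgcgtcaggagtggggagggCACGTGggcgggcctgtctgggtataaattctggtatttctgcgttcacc
Fgf7: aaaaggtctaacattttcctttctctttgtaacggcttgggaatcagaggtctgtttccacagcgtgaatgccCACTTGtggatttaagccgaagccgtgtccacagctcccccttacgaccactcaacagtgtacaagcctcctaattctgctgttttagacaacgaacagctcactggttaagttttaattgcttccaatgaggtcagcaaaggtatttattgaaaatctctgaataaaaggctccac
In the Fgf21 window the E-boxes CAAGTG and CACGTG began 88 and 50 bases before the start, and TTGCATCA, the ATF4-type motif read on the other strand, began 139 bases before it. The Fgf7 window held 1 E-box, CACTTG, 177 bases before the start, and no TGATGNAA. The window of Fgf2, which also fell by Myog and is not printed, held 0 E-boxes and no TGATGNAA. Fgfr4, Fgfrl1 and Fgfr2 were tested by Myog and not called in the main fit. Their windows held 2, 1 and 1 E-boxes, that of Fgfrl1 being CACGTG as in Fgf21, so E-box number did not follow the calls. Of 32851 RefSeq windows of this length, 66.2% held at least 1 E-box, 31.8% held at least 2, and 3.45% held TGATGNAA. An upstream window was present for 9 of the 10 genes, with 2 start sites for Fgfr3. These matches describe the letters only.

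The deposited matrices held 62849 cell barcodes, of which 61673 were kept as cells, between 8674 and 12541 a sample. Kept cells had a median of 13001 to 19951 unique molecular identifiers (UMIs, tags that count RNA molecules) a sample, and the UMIs summed over a sample came to between 133608357 and 193380549 on the shared genes. Any 2 libraries shared 23 to 35 barcodes, at most 0.369% of the smaller library. By their markers the cultures were not alike. The summed level of 9 myogenic markers was 348, 214 and 282 CPM (counts scaled to a common library total) in young replicates 1 and 3 and old replicate 1, and 2284, 1735 and 3670 CPM in young replicate 2 and old replicates 2 and 3. Of the markers of other lineages some were near 0 in every sample (Lum at most 0.00548 CPM, Ptprc 0.0529, Tnmd 0.0207 and Sox10 0.0198), and others were not. The summed lists ran over the samples from 283 to 511 CPM for fibro-adipogenic, 125 to 304 for tendon, 1.75 to 62.7 for endothelial, 3.35 to 71.7 for smooth muscle and pericyte, 1.39 to 7.69 for blood and immune, 0.487 to 1.90 for glial and 0.255 to 12.5 for epithelial markers. Gsn (149 to 317 CPM) and Scx (120 to 303 CPM) were present throughout. The highest values were in 1 sample for Tek (58.9 CPM, young replicate 2), Cd34 (119 CPM, old replicate 1), Ly6a (126 CPM, old replicate 2) and Rgs5 (10.3 CPM, young replicate 3). Notch3 was high in the 3 cultures with high myogenic sums, at 68.3, 42.0 and 18.3 CPM in young replicate 2 and old replicates 2 and 3, against 1.47 to 2.99 CPM in the other 3. For Krt18, old replicate 2 held 7.24 CPM and old replicate 3 held 11.6 CPM, with at most 0.403 CPM elsewhere. The part of these differences between cultures in the results on old and young was not tested.

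None of the 8 genes tested differed between old and young at an adjusted p under 0.05 in edgeR. Fgfr3 and Fgfr4 were higher in each old sample than in any young sample, and Fgf21 was high in 2 of the 3 old samples. Fgfr1, Fgfr2, Fgfrl1, Fgf2 and Fgf7 overlapped between the groups. In the same fit 0.00689% of 14512 genes passed, which is 1 gene, and 512 had an unadjusted p under 0.05, among them Fgfr3 and Fgfr4. The fit used counts summed over the cells of each sample, with a term for the gene list of its matrix. Levels are CPM scaled by edgeR's TMM factors unless called unscaled, and fold changes are log2 of old over young. Since each sum runs over all cells, fewer cells with a transcript and less RNA per cell cannot be told apart from it.

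**Figure D1:**
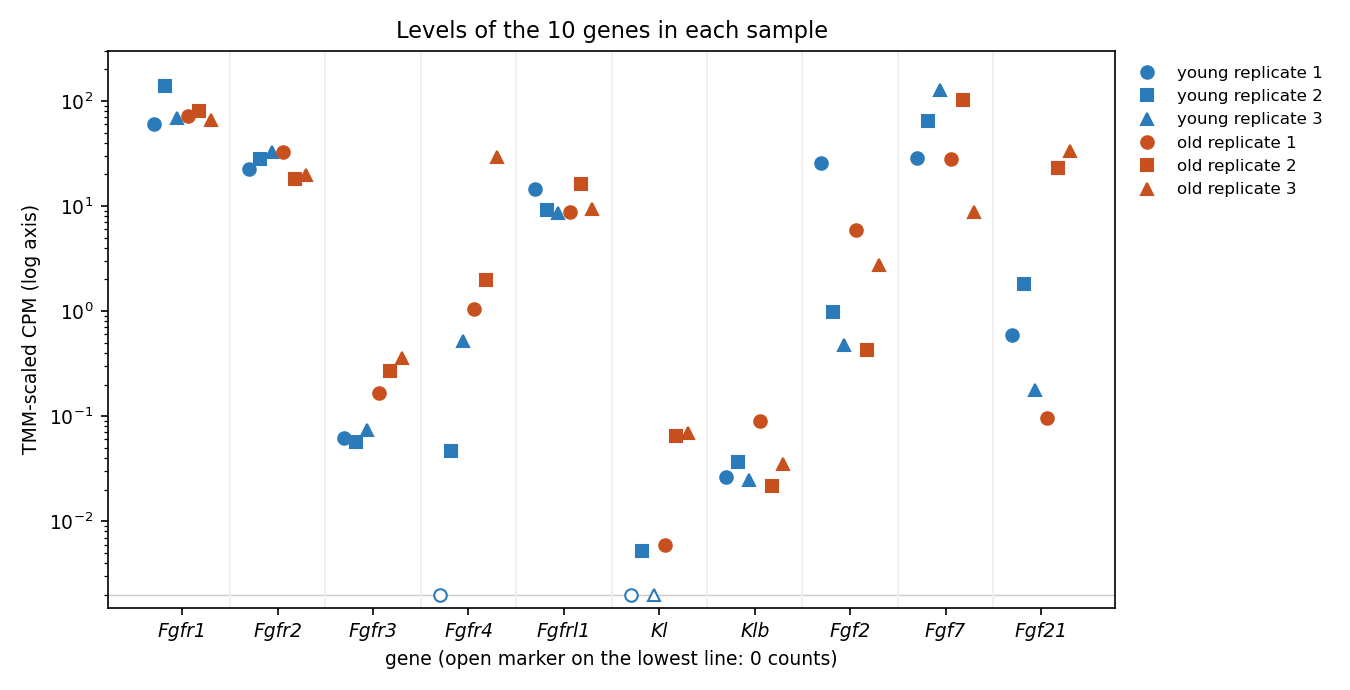
TMM-scaled CPM (log axis) of each of the 10 genes in the 3 young (blue) and 3 old (orange) samples, 1 marker a sample, with open markers on the lowest line for samples with 0 counts. Fgfr3, Fgfr4 and, on few counts, Kl show no overlap between young and old, Fgfr1 and Fgfr2 lie within a narrow band, and Fgf2, Fgf7 and Fgf21 spread widely within a group.

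Fgfr1 (chr8:25513654-25575718, GRCm38), the receptor that carries most FGF2 signalling in myoblasts, was well detected in every culture. Its level was 59.8, 139 and 68.7 CPM in young replicates 1, 2 and 3, and 71.1, 80.9 and 66.3 CPM in old replicates 1, 2 and 3. Young replicate 2 was the highest and young replicate 1 the lowest, so the old samples lay inside the young range. The means were 89.3 ± 43.5 CPM in young and 72.8 ± 7.46 CPM in old (SD, n = 3 each). The log2 fold change was -0.25 with an SE of 0.35, an edgeR adjusted p of 1.00, and it turned to 0.15 when young replicate 2 was left out.

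Fgfr2 (chr7:130162451-133123350), whose epithelial splice form is the receptor of FGF7, was the second receptor detected in all samples. The young cultures stood at 22.6, 27.9 and 32.6 CPM, compared with 32.9, 18.1 and 19.5 CPM for the old ones. Old replicates 2 and 3 were the lowest and old replicate 1 the highest of all 6. Old over young gave -0.28 with an SE of 0.31 (edgeR adjusted p = 1.00). On the 4 samples of the longer gene list alone it was -0.68, with an edgeR adjusted p of 0.722. Fgfr2 splice forms are not separated by these counts.

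Fgfr3 (chr5:33721674-33737068), a receptor known for restraining bone growth, was rare. Young samples held 7, 11 and 15 counts, compared with 28, 50 and 61 for old samples, or 0.0618, 0.0571 and 0.0734 CPM against 0.167, 0.270 and 0.354 CPM. The lowest old sample was above the highest young one. Old over young gave 1.98 with an SE of 0.59, an unadjusted p of 0.0164 and an edgeR adjusted p of 1.00.

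Fgfr4 (chr13:55152640-55168759) is the receptor linked to myogenic cells in muscle development and regeneration. Young samples held 0, 9 and 105 counts, compared with 175, 364 and 5031 for old samples. Scaled, this was 0, 0.0467 and 0.514 CPM in young and 1.04, 1.96 and 29.2 CPM in old. Old replicate 3 alone held most of the UMIs, and young replicate 1 held none among 8674 cells, which allows a share of up to 0.0346% of cells with a UMI. The means were 0.187 ± 0.284 CPM in young and 10.7 ± 16.0 CPM in old (SD, n = 3 each), and the fold change was 6.22 with an SE of 1.62, an unadjusted p of 0.00977 and an edgeR adjusted p of 1.00. DESeq2 called it, at a fold change of 6.52 and an adjusted p of 0.000201, in a run that called 1.51% of all genes, 1.24% as higher in old. It was the only one of the 8 tested genes that DESeq2 called. Since every old sample was above every young one, the old samples were necessarily the higher within the pair on the shorter gene list (0 and 175 counts) and among the 4 samples on the longer one. Between groups without overlap stood 2 of the 8 tested genes, Fgfr3 and Fgfr4, against 6.05% of all genes tested, or 3.63% for higher in old.

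Fgfr4 was also followed within cells of 1 class, since the share of cells with the differentiation factor Myog differed between samples from 0.707% to 45.9%. Among Myog-positive cells alone its level was 0, 0.0940 and 3.71 CPM in young and 10.6, 4.39 and 33.9 CPM in old, with a fold change of 3.95 (SE 1.44; edgeR adjusted p = 1.00). Among Myog-negative cells it was 0, 0 and 0.348 CPM against 1.22, 2.20 and 27.0 CPM, with a fold change of 6.49 (SE 1.70; edgeR adjusted p = 1.00). The groups did not overlap in either class, and neither fold change passed. How many of all genes were without overlap within a class was not counted. In Myog-positive cells this rested on few UMIs, 0, 1 and 11 in young and 4, 28 and 884 in old. In old replicate 2, chromosome 13 as a whole, on which Fgfr4 lies, was 0.31 higher on the log2 scale than its mean over the 6 samples.

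Fgfrl1 (chr5:108692382-108706924) encodes a receptor-like protein that binds FGFs and lacks the kinase domain. Young samples were at 14.5, 9.11 and 8.63 CPM, old samples at 8.80, 16.2 and 9.30 CPM. Young replicate 1 and old replicate 2 were the highest, and the other 4 samples lay close together. The fold change of 0.11 had an SE of 0.39 (edgeR adjusted p = 1.00). Chromosome 5 was 0.27 higher on the log2 scale in old replicate 2, and after subtraction of each chromosome's median the fold change was -0.0063.

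The Klotho genes were close to absent. Kl (chr5:150952607-150993817), which encodes the FGF23 co-receptor Klotho, had 0, 1 and 0 counts in young samples, compared with 1, 12 and 12 for old samples. Klb (chr5:65348314-65384007), which encodes the FGF21 co-receptor beta-Klotho, had 3, 7 and 5 counts in young samples, compared with 15, 4 and 6 for old samples. Neither gene passed the filter on low counts, so neither was tested by edgeR. For Kl nearly all UMIs came from old replicates 2 and 3, and the scaled levels did not overlap (at most 0.00519 CPM in young, at least 0.00596 CPM in old, each 1 count), whereas for Klb old replicate 1 was the highest and the other old samples overlapped the young ones. With 61673 cells in all, 1 young and 25 old Kl UMIs and 15 young and 25 old Klb UMIs were seen.

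Among the ligands, Fgf2 (chr3:37348346-37410108) varied widely between replicates of a group. Young samples stood at 25.6, 0.981 and 0.474 CPM, compared with 5.94, 0.426 and 2.73 CPM for old samples. The highest values were in young replicate 1 and old replicate 1, whose matrices used the shorter gene list and another Cell Ranger version. Between these 2 samples old was the lower, and among the 4 samples on the longer list old replicate 3 was the highest and old replicate 2 the lowest. Old over young gave 0.13 with an SE of 1.06 (edgeR adjusted p = 1.00), and it was -1.57 without the term for the gene list. Fgf2 shares its locus with Nudt6, which runs on the other strand, and whether the counting used strand is not given in the sources used here.

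In old replicate 3, 81.7% of the Fgf2 UMIs came from the deepest 10% of its cells, which held 21.8% of all its UMIs. In the other 5 samples that share was between 15.5% and 24.9%. Cells of old replicate 3 with an Fgf2 UMI after thinning to 5000 UMIs, 76 in number, had a median depth of 26976 UMIs before thinning, against 12984 in cells without one. They held less of all 9 myogenic markers, 642 against 3781 unscaled CPM in sum, and more of 5 of 8 fibro-adipogenic markers, 545 against 291 CPM in sum. Among the latter were Cd34 (142 against 16.0 CPM) and, on few UMIs, Dcn (13.2 against 0.695 CPM), while Col3a1 went the other way (39.5 against 71.2 CPM). Pdgfra and Lum were at 0, but they were near 0 in the other cells too (0.165 and 0.0165 CPM). The part of the cells with an Fgf2 UMI in the Fgf2 level was not tested. Without the deepest 10% of cells in every sample the fold change of old over young was -0.96.

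Fgf7, which encodes keratinocyte growth factor, a stromal ligand that acts on epithelia, was seen in more cells than Fgf2 or Fgf21 in 4 of 6 samples at each depth, while in young replicate 1 Fgf2 was about as frequent and in old replicate 3 Fgf21 was seen in more cells. Young samples stood at 28.9, 64.4 and 128 CPM, compared with 28.0, 103 and 8.74 CPM for old samples. The highest value was young and the lowest was old replicate 3, with the other 4 samples interleaved. Means were 73.8 ± 50.3 CPM in young and 46.5 ± 49.7 CPM in old (SD, n = 3 each). The fold change of -0.54 had an SE of 0.86 (edgeR adjusted p = 1.00) and became 0.034 without old replicate 3. In that sample 45.5% of the Fgf7 UMIs came from the deepest 10% of cells, against 16.8% to 22.0% in the other 5. Fgf7 lies within Fam227b, which runs on the other strand, so the limit on strand holds here too.

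Fgf21 spanned a wide range. Young samples held 67, 345 and 36 counts, compared with 16, 4239 and 5781 for old samples, or 0.592, 1.79 and 0.176 CPM against 0.0954, 22.9 and 33.5 CPM. Old replicates 2 and 3 were far above the rest, and old replicate 1 was the lowest of all. The fold change of 3.32 had an SE of 2.36 and an edgeR adjusted p of 1.00. On the 4 samples of the longer list it was 4.84, with an edgeR adjusted p of 0.722, and without any 1 sample it stayed between 1.07 and 4.84 without passing. Leaving out young replicate 1 or old replicate 1 in effect repeats the fit on the longer list. The samples with high Fgf21 also had high myogenic marker sums, but young replicate 2, at 2284 CPM of myogenic markers, had little Fgf21. Krt18, an epithelial marker, was also highest in old replicates 2 and 3, while Epcam, Krt8 and Krt14 were at most 0.694 CPM in every sample, and its part in the Fgf21 level was not tested. Among Myog-positive cells alone Fgf21 was at 21.8, 7.24 and 2.70 CPM in young and 7.93, 64.8 and 66.1 CPM in old, a fold change of 2.52 (SE 1.03; edgeR adjusted p = 1.00).

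**Figure D2:**
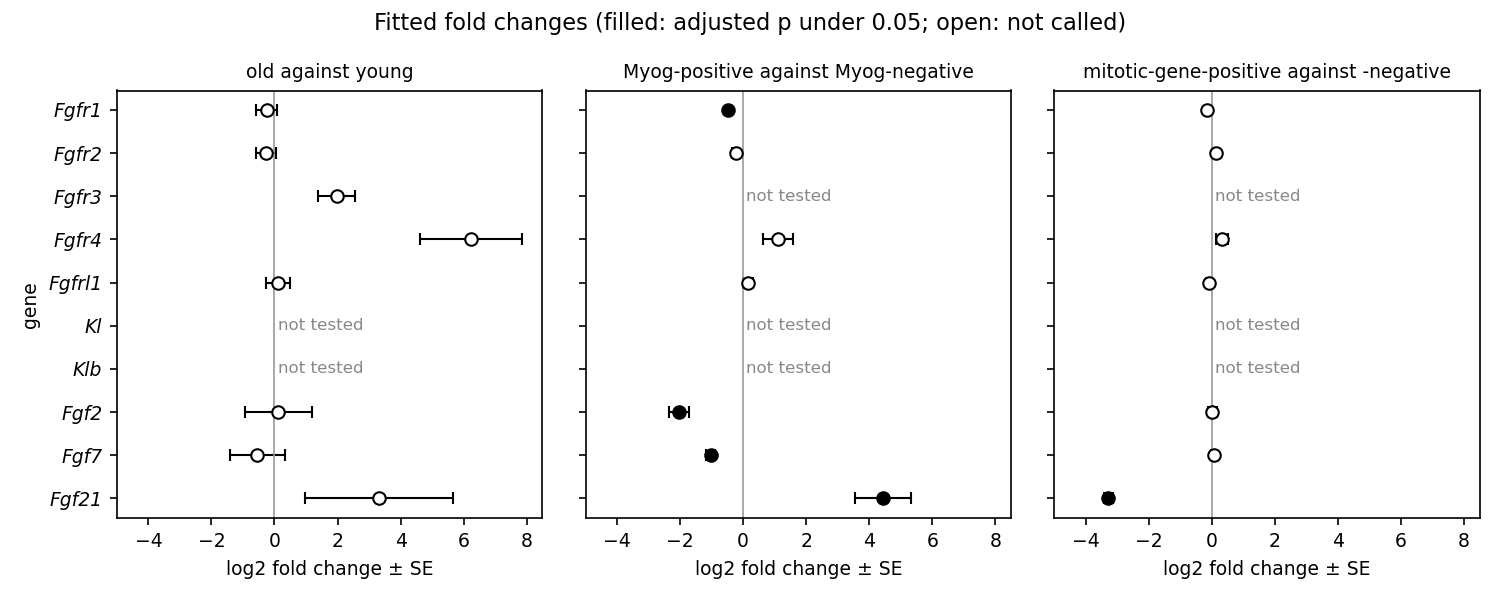
Log2 fold change with its SE for each gene in 3 comparisons: old against young, Myog-positive against Myog-negative cells, and mitotic-gene-positive against mitotic-gene-negative cells. Filled points passed an edgeR adjusted p of 0.05: none between old and young, 4 genes by Myog and Fgf21 by mitotic genes.

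The share of cells with at least 1 UMI was taken after each cell was thinned at random to 5000 UMIs, with 149 to 373 shallower cells a sample left out. In young replicates 1, 2 and 3 and old replicates 1, 2 and 3, Fgfr1 was seen in 21.8%, 47.3%, 29.3%, 29.9%, 32.8% and 25.0% of cells. Fgfr2 was seen in 9.89%, 12.9%, 16.2%, 16.0%, 8.85% and 8.80%. These shares followed the summed levels, with 95% Wilson intervals at most 1.99 points wide, which cover counting error only. Without thinning, the shares were 46.9% to 81.5% for Fgfr1 and 22.6% to 43.0% for Fgfr2.

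Fgfr4 was seen in 0%, 0.00939% and 0.273% of young cells and in 0.656%, 1.26% and 12.8% of old cells. In old replicate 3 the 95% Wilson interval was 12.2% to 13.4%, and without thinning the share there was 30.0%. Fgfr3 was seen in 0%, 0.0282% and 0.0470% of young and 0.141%, 0.141% and 0.164% of old cells. For both genes every old sample lay above every young one, which in an exact two-sided permutation test gives p = 0.1, the smallest p that 3 samples against 3 allow. The other 8 genes overlapped between the groups, with exact permutation p between 0.3 and 0.9. Kl, on few UMIs, was also higher in each old sample at 10000 UMIs, without thinning and over all barcodes (exact permutation p = 0.1 each). Free RNA in the droplets can give a UMI to a cell that does not make the transcript. The cultures held no class of cells known to lack these genes, so that background could not be measured for them directly, and the lowest shares are no evidence of expression.

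Fgfrl1 was seen in 3.86% to 7.59% of thinned cells a sample. Fgf2 was seen in 9.23%, 0.479% and 0.292% of young and 2.80%, 0.223% and 0.625% of old cells. For Fgf7 the shares were 9.79%, 21.3% and 44.2% in young and 12.4%, 28.3% and 3.11% in old samples. Kl was seen in at most 3 thinned cells of any sample and Klb likewise.

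Fgf21 was concentrated in few cells in 5 of 6 samples, the exception being old replicate 1 with 3 UMIs. It was seen in 5.72% of cells of old replicate 2 and 5.59% of old replicate 3, where an even (Poisson) spread of the same UMIs over equally deep cells would have reached 10.8% and 13.6%. The variance of its UMIs per cell divided by their mean was 3.59 and 5.19 in these samples, and 5.77 in young replicate 1, where 31 UMIs lay in 13 cells. A single cell held up to 18 Fgf21 UMIs of 5000. Fgf7 showed the same in part, with a ratio of 2.39 in old replicate 2 and 28.3% of cells where an even spread gives 41.2%. Fgfr1, Fgfr2, Fgfr4 and Fgfrl1 stayed at ratios of 0.996 to 1.20 wherever they were found, close to an even spread.

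**Figure D3:**
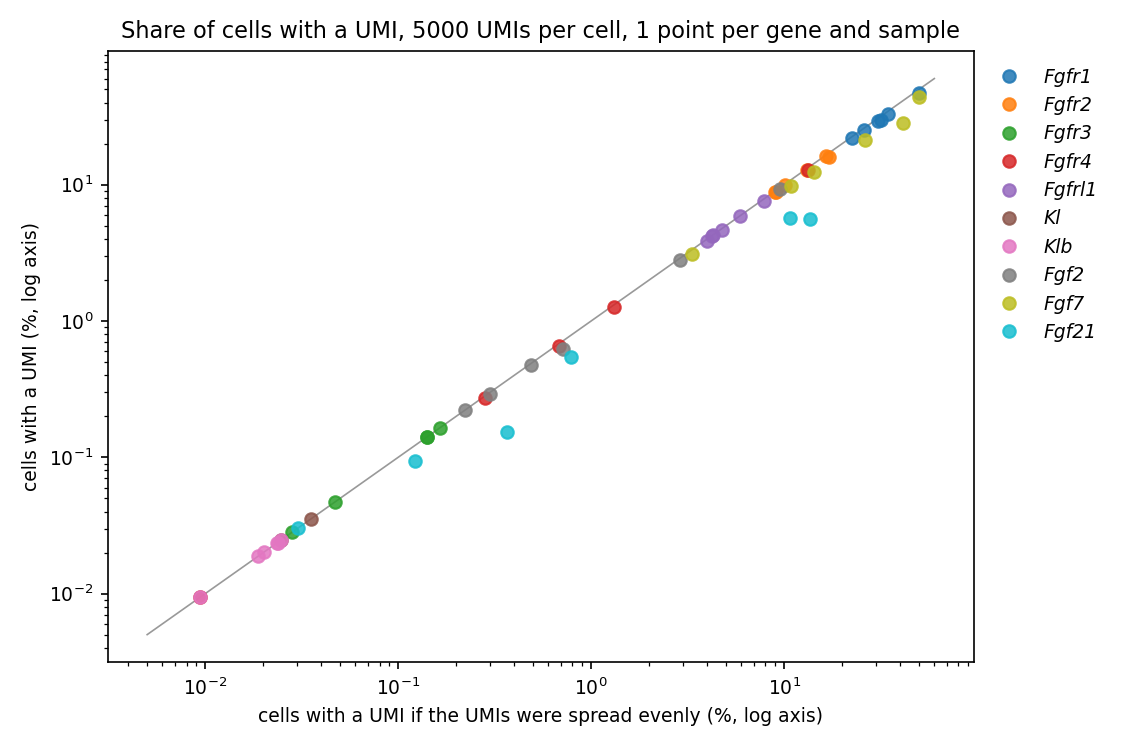
Percentage of cells with at least 1 UMI of a gene (log axis) against the percentage that an even spread of the same UMIs would give (log axis), 1 point for each gene and sample with any UMI, all cells thinned to 5000 UMIs. Most points lie on the line of equality, while Fgf21 and, in part, Fgf7 fall below it.

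Pairs of genes were found in the same cell about as often as their separate shares predict. Among the 6 pairs of Fgfr1, Fgfr2, Fgfrl1 and Fgf7, each seen in at least 1% of cells of every sample, the observed share of double-positive cells over the product of the single shares lay between 0.697 and 1.28. It was above 1 in 6 of 6 samples for 3 pairs, Fgfr1 with Fgf7, Fgfr1 with Fgfr2 and Fgfr2 with Fgf7. These ratios were not tested.

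Comparing classes of cells within each culture took the differences between cultures out of the comparison. Cells with at least 1 UMI of Myog, the factor that starts terminal myoblast differentiation, were set against cells with none, after thinning to 5000 UMIs and with the sample as a block. Fgf21 was higher in Myog-positive cells, and Fgf2, Fgf7 and Fgfr1 were lower. With 4 of 7 tested genes called, 1 higher and 3 lower, the share was to be read against 31.0% of all 12374 genes called, 13.8% higher and 17.2% lower. Myog-positive cells made up 3.55%, 20.7% and 4.99% of thinned young cells and 0.707%, 14.7% and 45.9% of old ones. Low depth and free RNA can put a cell into the wrong class, and their part in these results was not tested.

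Fgf21 was found at 21.5, 7.52 and 2.73 CPM in Myog-positive young cells and 7.72, 64.4 and 68.7 CPM in Myog-positive old cells. In Myog-negative cells it was at 0.0569, 0.165 and 0.0907 CPM in young and 0, 14.4 and 1.56 CPM in old. The positive class was higher in 6 of 6 samples, as for 12.9% of all genes tested, although the young counts were small, with 29, 77 and 8 thinned UMIs in positive against 2, 7 and 5 in negative cells. The log2 fold change of positive over negative was 4.44 with an SE of 0.89 (edgeR adjusted p = 0.0172). It lost the call without young replicate 2 (4.37, edgeR adjusted p = 0.0575) and without old replicate 3 (4.17, edgeR adjusted p = 0.0660).

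By cells, 11.6% of the Myog-positive cells of old replicate 3 had an Fgf21 UMI (95% Wilson interval 10.8% to 12.4%) against 0.517% of its Myog-negative cells (0.370% to 0.721%). In old replicate 2 the shares were 14.8% (13% to 16.9%) and 4.15% (3.71% to 4.63%), so that most of its Fgf21 cells, 301 of 487, were Myog-negative. In old replicate 1 the gene was seen in 3 of 70 Myog-positive and 0 of 9836 Myog-negative cells. The 2 old samples with high Fgf21 thus differed in how it was divided between the classes.

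**Figure D4:**
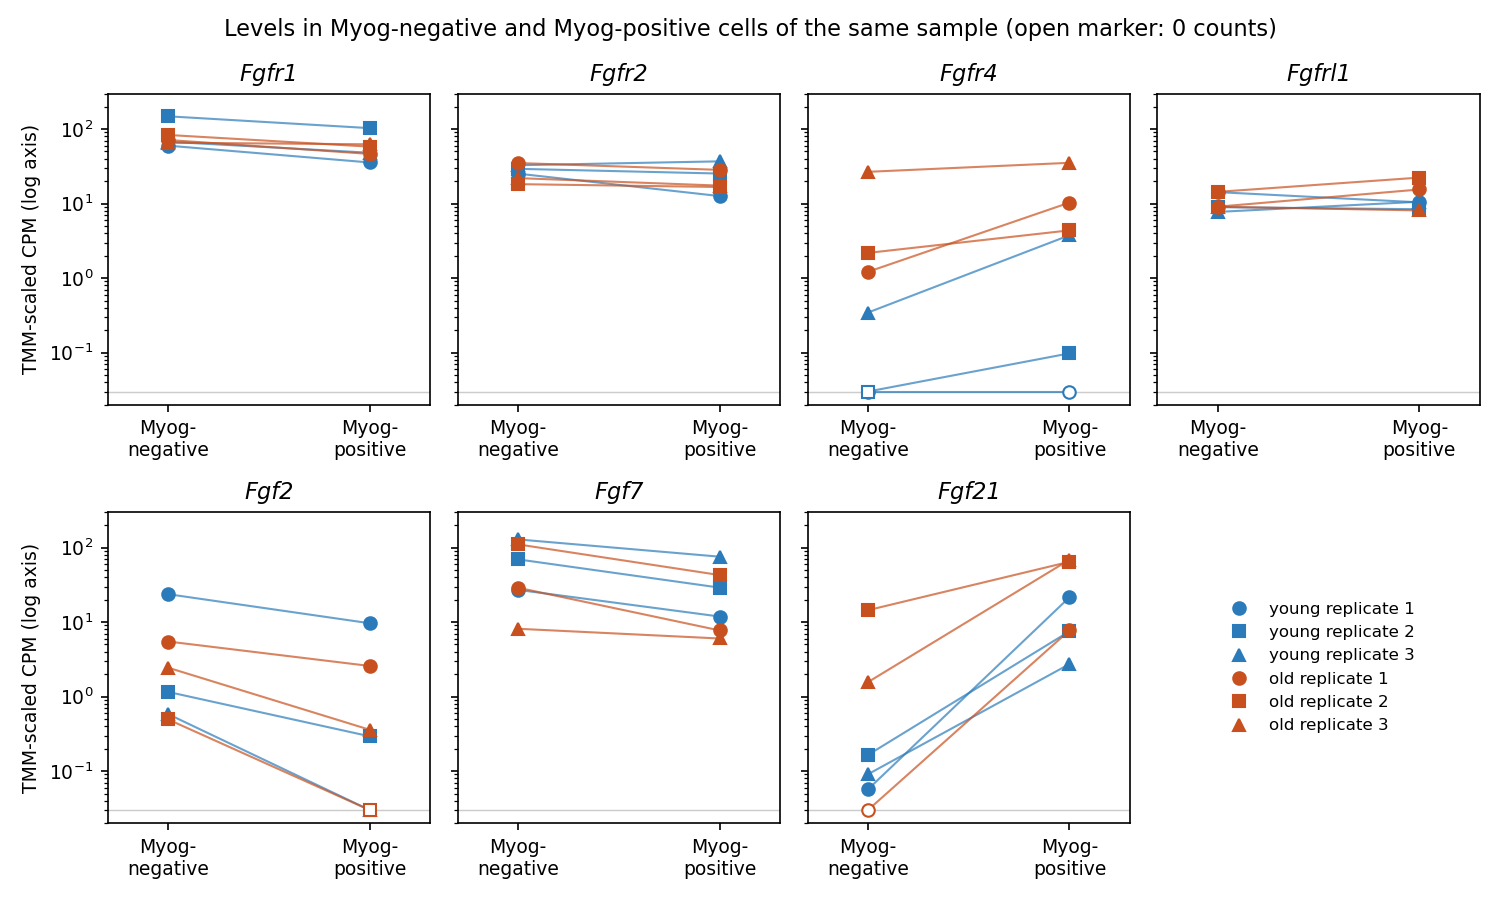
TMM-scaled CPM (log axis) of 7 genes in Myog-negative and Myog-positive cells, with a line for each sample (blue young, orange old) and open markers on the lowest line for 0 counts. Fgf21 climbs in 6 of 6 samples, while Fgfr1, Fgf2 and Fgf7 go down in 6 of 6.

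Fgf2 moved the other way. Its Myog-positive levels were 9.64, 0.293 and 0 CPM in young and 2.57, 0 and 0.359 CPM in old, against Myog-negative levels of 23.7, 1.15 and 0.580 CPM in young and 5.48, 0.492 and 2.44 CPM in old. Positive cells were lower in 6 of 6 samples, as for 18.9% of all genes tested, with only 26 thinned Fgf2 UMIs in all positive cells together against 1299 in negative ones. Of these, young replicate 3 and old replicates 1 and 2 held 0, 1 and 0 UMIs in positive cells. Positive over negative gave -2.04 with an SE of 0.32 (edgeR adjusted p = 0.00124). Without thinning, where deeper cells are called positive more often, it was -0.71 (edgeR adjusted p = 0.00933). There, by the log2 ratio with 1 CPM added, 5 of 6 samples were lower and young replicate 3 was slightly higher.

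Fgf7 was at 11.9, 29.0 and 75.4 CPM in Myog-positive young cells and 7.72, 42.7 and 6.02 CPM in Myog-positive old cells. Myog-negative cells held 27.0, 69.4 and 129 CPM in young and 28.9, 110 and 8.13 CPM in old, higher in 6 of 6 samples. Positive over negative gave -1.03 with an SE of 0.14 (edgeR adjusted p = 0.000527), and -0.63 without thinning. By cells, 29.1% of Myog-positive and 45.0% of Myog-negative cells of young replicate 3 had an Fgf7 UMI, against 2.63% and 3.53% in old replicate 3. The gap was thus narrow in the sample with the least Fgf7.

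Fgfr1 was lower in Myog-positive cells of 6 of 6 samples, by a small amount. Its positive and negative levels were 35.6 and 59.8, 103 and 148, and 48.1 and 67.5 CPM in young replicates 1, 2 and 3. In old replicates 1, 2 and 3 they were 46.3 and 71.3, 58.0 and 83.3, and 62.4 and 65.6 CPM. Old replicate 3, with the most Myog-positive cells, had the smallest gap. The fold change was -0.47 with an SE of 0.09 (edgeR adjusted p = 0.00344), and -0.28 without thinning.

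The remaining receptors did not pass by Myog. Fgfr4 was higher in Myog-positive cells of 5 samples and at 0 in both classes of young replicate 1, with levels of 35.2 and 26.7 CPM in old replicate 3 and 10.3 and 1.21 CPM in old replicate 1. Its fold change was 1.10 with an SE of 0.49 (edgeR adjusted p = 0.134). It passed without old replicate 3, at 2.19 (edgeR adjusted p = 0.0218), and in DESeq2, at 2.06 (adjusted p = 0.00224). Fgfr2 had a fold change of -0.24 (SE 0.12; edgeR adjusted p = 0.162), which passed without thinning at -0.25 (edgeR adjusted p = 0.0144), and Fgfrl1 one of 0.15 (SE 0.16; edgeR adjusted p = 0.518). Fgfr3, Kl and Klb were too rare for this fit, with 21, 2 and 1 thinned UMIs in Myog-positive and 33, 4 and 11 in Myog-negative cells.

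The cells with an Fgf21 UMI were described by their myogenic markers, with no test. In old replicate 3, 95.0% of 680 such cells were Myog-positive against 43.0% of the other cells, and in young replicate 2 it was 89.7% of 58 cells against 20.3%. In old replicate 2 it was 38.2% of 487 cells against 13.3%. Mymk, the membrane protein that lets myoblasts fuse, stood at 934 against 161 unscaled CPM in old replicate 3, 538 against 27.3 CPM in young replicate 2 and 99.0 against 20.7 CPM in old replicate 2. Pax7, a marker of the undifferentiated muscle stem cell, went the other way, at 10.0 against 38.7, 37.9 against 57.3 and 15.2 against 24.8 CPM in the same order. These are single markers of a list of 9. In young replicate 2, 7 of the 9 were higher in cells with Fgf21, and Pax7 and Myf5 (6.90 against 34.1 CPM) were lower. Cells with Fgf21 were deeper at the median in 4 samples, as in old replicate 3 with 14165 against 12942 UMIs, and shallower in young replicates 1 (11273 against 13910) and 3 (13691 against 15584). The summed fibro-adipogenic markers were lower in cells with Fgf21 in 6 of 6 samples, with Lum at 0 in 5 whole samples. In young replicates 1 and 3 and old replicate 1 this rested on only 13, 10 and 3 cells with Fgf21.

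**Figure D5:**
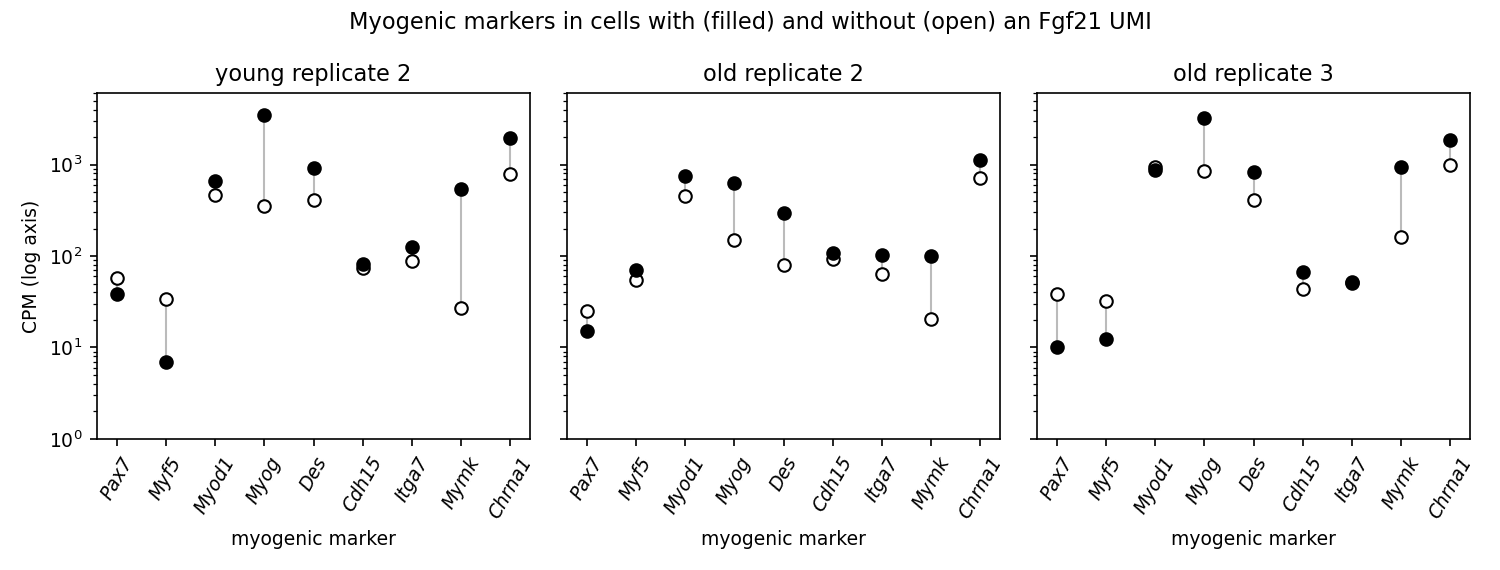
Unscaled CPM (log axis) of 9 myogenic markers in cells with (filled) and without (open) an Fgf21 UMI, in young replicate 2 and old replicates 2 and 3, thinned to 5000 UMIs. Myog, Mymk, Des and Chrna1 are higher and Pax7 is lower in cells with Fgf21 in all 3 samples.

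A second division set cells with 3 or more UMIs over 8 mitotic genes (Mki67, Top2a, Cenpf, Cdk1, Birc5, Ccnb1, Ube2c and Prc1) against cells with 0. Fgf21 was the gene that fell among the 7 tested here. That is 1 of 7 called, against 48.2% of all 11864 genes, of which 22.0% were higher and 26.2% lower. Its mitotic-positive levels were 0.0618, 0.430 and 0.152 CPM in young and 0.0266, 3.13 and 11.2 CPM in old. The mitotic-negative levels were 2.05, 4.22 and 1.3 CPM in young and 0.164, 35.6 and 97.1 CPM in old. Positive cells were lower in 6 of 6 samples, as for 22.2% of all genes tested. The thinned UMIs in positive against negative cells were 1 against 28, 13 against 48 and 7 against 5 in young. In old they were 1 against 1, 52 against 658 and 408 against 957. In young replicate 3 and old replicate 1 the direction thus rested on few UMIs. The fold change was -3.29 with an SE of 0.14 (edgeR adjusted p = 1.63e-08). Leaving out any 1 sample left it between -3.46 and -3.18. The mitotic and the Myog divisions were made on the same cells and are not independent.

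Fgfr1 was lower in mitotic-positive cells of 6 of 6 samples, by 0.16 on the log2 scale (-0.16, SE 0.06), and missed the threshold at an edgeR adjusted p of 0.0502. DESeq2 gave -0.18 with an adjusted p of 0.0246, and edgeR with DESeq2's size factors -0.18 with an adjusted p of 0.0226. Without single samples the edgeR adjusted p of Fgfr1 lay between 0.0536 and 0.145, and over all alternatives its adjusted p reached 0.201. Without thinning Fgfr1 was lower in 5 of 6 samples and higher in old replicate 3. Fgfr2 stood at 0.12 (SE 0.07; edgeR adjusted p = 0.168), Fgfr4 at 0.31 (SE 0.19; edgeR adjusted p = 0.210) and Fgfrl1 at -0.09 (SE 0.10; edgeR adjusted p = 0.495). For the paracrine ligands the fold changes were 0.02 for Fgf2 (SE 0.16; edgeR adjusted p = 0.935) and 0.06 for Fgf7 (SE 0.10; edgeR adjusted p = 0.651). None of the genes of this paragraph passed in edgeR with TMM scaling.

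Whether the within-culture differences themselves differed between old and young was asked with 15 exact permutation tests, unadjusted, on the log2 ratio of class levels with 1 CPM added. With 3 samples against 3 no exact permutation test can go below p = 0.1. Fgf21 in Myog-positive over Myog-negative cells had ratios of 4.28, 2.78 and 1.87 in young and 3.26, 2.03 and 4.64 in old samples, which overlapped (exact permutation p = 0.7). For Fgf7 the ratios were -1.06, -1.34 and -0.74 in young and -1.74, -1.40 and -0.47 in old (exact permutation p = 0.7). Fgfr3 by Myog had ratios without overlap, but young samples held 0 Fgfr3 UMIs in Myog-positive cells and 0, 3 and 5 in Myog-negative cells, and old replicate 1 held 1 in Myog-positive cells. With counts this low the added 1 CPM sets the young ratios near 0, and nothing is read from them. Without thinning Fgfr3 overlapped (exact permutation p = 0.2), and Fgfrl1 by Myog was the gene without overlap (exact permutation p = 0.1).

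Around these 10 genes, 87 other genes of the pathway were taken in 6 lists, 86 of them on both gene lists. In the comparison of old with young no gene of any list passed in edgeR, with 1 of 12 tested genes of the ligand list at an unadjusted p under 0.05 and none in the other 5 lists. Of the list genes named for this comparison, DESeq2 called Fgf13 and Fgf14. The gene below 0.05 was Fgf13, an intracellular member of the family that does not bind the receptors. Its level was 0.106, 1.83 and 0.323 CPM in young and 5.70, 48.2 and 59.3 CPM in old samples, without overlap. The fold change was 5.67 with an SE of 0.74 (edgeR adjusted p = 0.347), and DESeq2 gave 5.67 with an adjusted p of 7.42e-14. Fgf13 is X-linked, and the X chromosome as a whole was 0.74 higher on the log2 scale in old replicate 2 than its mean over the samples. Fgf14, its relative, was at 24.8 CPM in young replicate 2 and at most 0.866 CPM elsewhere, with a fold change of -5.25 (SE 2.23; edgeR adjusted p = 1.00; DESeq2 adjusted p = 0.0311) that was -0.64 without young replicate 2.

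The median fold change of the lists between old and young lay between -0.29 for the ligands and 0.12 for the membrane partners, beside -0.01 over all genes tested. The genes of lowest unadjusted p in each list had fold changes of -0.32 for the adaptor Shc1, -0.39 for Plcg1, 0.51 for Rnd3, 0.69 for Egr1, 1.10 for the glypican Gpc4, -1.07 for Gpc6, -0.63 for the sulfotransferase Ndst2, 0.54 for the sulfatase Sulf2, 1.72 for Lctl and -0.09 for the sheddase Adam10. The Lctl value was 0.23 without old replicate 2, which held 1.01 CPM against at most 0.176 CPM elsewhere. All had an edgeR adjusted p of 1.00. Of these 10 genes, Ndst2 was the one whose groups did not overlap, lower in old. Over the 6 lists the groups did not overlap for 2 of 12 tested genes of the ligand list and 1 of 12 heparan sulfate enzymes, and for none in the other lists. This is to be read against 6.05% of all genes tested.

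The pathway lists were then counted by Myog, beside 13.8% of all genes called higher and 17.2% lower. Of 19 tested targets and feedback inhibitors, 2 were higher and 9 lower in Myog-positive cells in edgeR, with a median fold change of -0.37 beside -0.06 over all genes. Etv4, a factor induced by FGF signalling, fell by 1.49 on the log2 scale (-1.49, SE 0.18; edgeR adjusted p = 0.000324), and Fosl1 by 1.22 (-1.22, SE 0.12; edgeR adjusted p = 0.000109). The phosphatase gene Dusp5 fell by 1.20 (-1.20, SE 0.24; edgeR adjusted p = 0.00588). Spry1, an inhibitor of the pathway that quiescent muscle stem cells are known to keep, rose by 1.59 (SE 0.23; edgeR adjusted p = 0.00124). Egr1 rose by 0.82 (SE 0.23; edgeR adjusted p = 0.0264), a call lost without young replicate 1, young replicate 2 or old replicate 2 (edgeR adjusted p = 0.0716, 0.0729 and 0.0638).

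Of 6 tested genes of the ligand list, 4 rose and 1 fell by Myog, beside 13.8% and 17.2% of all genes. The list takes FGF family genes by name, also members such as Fgf13 that do not bind the receptors, so these are not counts of receptor ligands. Fgf13 rose by 1.29 (SE 0.15; edgeR adjusted p = 0.000197) and was higher in 5 of 6 samples. The others lay below the level set for naming and are named after their values were seen. Fgf11 rose by 1.52 (SE 0.21; edgeR adjusted p = 0.000598). Fgf5 rose by 0.67 (SE 0.21; edgeR adjusted p = 0.0289) and Fgf9 by 1.05 (SE 0.34; edgeR adjusted p = 0.0381), but without single samples their adjusted p reached 0.153 and 0.208. Fgf10 fell by 1.75 (-1.75, SE 0.46; edgeR adjusted p = 0.0160), a call lost without young replicate 1 (edgeR adjusted p = 0.0920) and without thinning (-0.67, edgeR adjusted p = 0.0865).

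Among 15 adaptors and kinases, 3 rose and 2 fell by Myog, a share close to the 31.0% of all genes called. Grb2 rose by 0.42 (SE 0.08; edgeR adjusted p = 0.00238), while the kinase gene Mapk3 fell by 0.55 (-0.55, SE 0.10; edgeR adjusted p = 0.00257). Map2k1 rose by 0.28 and passed narrowly, at an edgeR adjusted p of 0.0342. It lost its call without old replicate 2 (edgeR adjusted p = 0.107) or old replicate 3 (edgeR adjusted p = 0.152), and without thinning (0.13, edgeR adjusted p = 0.242).

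Of 16 tested membrane partners, 4 rose and 5 fell by Myog, beside 31.0% of all genes called in either direction. Ncam1, an adhesion molecule that binds FGF receptors, rose by 1.40 (SE 0.28; edgeR adjusted p = 0.0133), the glypican Gpc1 by 0.47 (SE 0.11; edgeR adjusted p = 0.00998) and the perlecan gene Hspg2 by 0.44 (SE 0.10; edgeR adjusted p = 0.00583). Gpc6 fell by 0.75 (-0.75, SE 0.12; edgeR adjusted p = 0.00180). The syndecan genes Sdc3 (-0.46, edgeR adjusted p = 0.0451) and Sdc1 (-0.39, edgeR adjusted p = 0.0327) lost their calls without any 1 of 5 and of 4 samples, at edgeR adjusted p of up to 0.0774 and 0.101 without young replicate 2. Of 11 tested heparan sulfate enzymes, 2 rose and 1 fell, no more than the 31.0% of all genes. Hs6st1 rose by 0.47 (SE 0.12; edgeR adjusted p = 0.0129) and Hs2st1 by 0.32 (SE 0.09; edgeR adjusted p = 0.0163), the latter lost without young replicate 2 (edgeR adjusted p = 0.0505) and with positive cells defined by 2 or more Myog UMIs (0.21, edgeR adjusted p = 0.154). Hs3st1, named after its value was seen, fell by 1.42 (-1.42, SE 0.24; edgeR adjusted p = 0.00164). None of the 3 tested Klotho relatives and sheddases passed in edgeR, and none had an unadjusted p under 0.05.

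By mitotic genes, 48.2% of all genes were called, 22.0% higher and 26.2% lower, and the share called in 5 of the 6 lists was close to this, the exception being the Klotho relatives with 0 of 3. Of 15 adaptors 4 rose and 3 fell, among them Shc1 at -0.33 (SE 0.06; edgeR adjusted p = 0.000814). Grb2 fell by 0.31 (-0.31, SE 0.06; edgeR adjusted p = 0.00166). Of 19 targets, 3 rose and 7 fell. Fosl1 rose by 0.76 (SE 0.14; edgeR adjusted p = 0.00230), while Egr1 fell by 0.75 (-0.75, SE 0.11; edgeR adjusted p = 0.000217) and Rnd3 by 0.33 (-0.33, SE 0.06; edgeR adjusted p = 0.00136). Etv4 rose by 0.88 (SE 0.27; edgeR adjusted p = 0.0293), a call lost without young replicate 3 (edgeR adjusted p = 0.0568) or old replicate 3 (edgeR adjusted p = 0.0760). Fosl1, Etv4, Egr1 and Grb2 had opposite signs in the 2 divisions of cells.

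Beside the same 48.2% of all genes, 2 of 4 tested genes of the ligand list fell by mitotic genes, Fgf13 by 0.96 (-0.96, SE 0.14; edgeR adjusted p = 0.000173) and Fgf11 by 0.99 (-0.99, SE 0.15; edgeR adjusted p = 0.000288). The list takes genes by name and Fgf13 does not bind the receptors, so neither fall is read as a fall of a receptor ligand. Among 15 membrane partners 1 rose and 7 fell. Ncam1 fell by 0.66 (-0.66, SE 0.06; edgeR adjusted p = 7.99e-06), Gpc1 by 0.39 (-0.39, SE 0.05; edgeR adjusted p = 8.34e-05) and Fgfbp1, which releases FGFs from the matrix, by 1.73 (-1.73, SE 0.39; edgeR adjusted p = 0.0104). Sdc1 rose by 0.43 (SE 0.11; edgeR adjusted p = 0.0109). Of 11 heparan sulfate enzymes 1 rose and 4 fell, with Hs2st1 at -0.25 (SE 0.06; edgeR adjusted p = 0.00411) and Ext1 at -0.21 (SE 0.05; edgeR adjusted p = 0.00828). Hs6st2 at 0.34 and Sulf1 at -0.34 lost their calls without any 1 of 4 samples, at edgeR adjusted p of up to 0.115 without old replicate 3 and 0.0978 without old replicate 2. Hras, Ptpn11, Plcg1 and Spry2 completed the named genes, at 0.23, 0.17, -0.29 and -0.42. Without thinning Hras, Ptpn11 and Plcg1 lost their calls (edgeR adjusted p = 0.0604, 0.184 and 0.0614). Ptpn11, Plcg1 and Spry2 also lost them without some single samples, at edgeR adjusted p of up to 0.0892 (without young replicate 2), 0.0506 (without young replicate 2) and 0.0713 (without old replicate 2). None of the 3 tested Klotho relatives and sheddases passed in edgeR, and none had an unadjusted p under 0.05.

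For each gene with a mean log2 CPM above 3, the genes with the most similar profile over the 6 samples were found by the root mean square (RMS) difference of centred log2 CPM, as a description. Fgf21 was nearest to Ppp1r27 (RMS 0.61) and Pgam2 (RMS 0.76), the muscle form of phosphoglycerate mutase, where the median gene stood at 3.20. Fgf7 was nearest to Gulp1 (0.30) and Eya1 (0.52), with a median of 1.36 over all genes. For Fgfr1 the genes included Cry1 (0.09), for Fgfr2 they were Mdc1 (0.05) and Yeats2 (0.06), and for Fgfrl1 Irgq (0.08) and Wsb2 (0.10), where the median gene stood at about 0.5. With 6 samples and many genes, many genes have a profile close to a flat one.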

How the data were processed

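The authors deposited, for each of the 6 samples, a matrix of whole-number UMI counts per gene and cell barcode, with no normalization. Per the file headers, young replicate 1 and old replicate 1 were made with Cell Ranger 7.0.0 on 21849 genes and the other 4 with Cell Ranger 7.2.0 on 32285. The submitters' processing notes name mm10, Cell Ranger 7.2.0 and Seurat 5.134. The annotation release, use of strand and doublet removal are not given in the sources used here. Coordinates are from GENCODE M21 (GRCm38).

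Here, cells with at least 1000 UMIs, 500 genes and under 15% mitochondrial UMIs were kept. Counts on 21485 shared genes were summed per sample (or per sample and class, after thinning to 5000 UMIs) and tested two-sided with edgeR 4.0.16 (TMM, filterByExpr, robust quasi-likelihood) in R 4.3.3, with Benjamini-Hochberg adjustment over all genes at 0.05. SEs are the fold change over the square root of F. The old against young fit had a gene list term, and class fits the sample as a block (at least 50 cells a class). DESeq2 1.42.0 was an alternative. Doublet callers were not run. The fits were tested on simulated data. The 8 marker lists and 6 pathway lists, like the 10 genes, were chosen with earlier results of these data known. Named pathway genes were the 2 of lowest p per list (old against young), or up to 3 called genes per list and direction with mean log2 CPM above 3. Some genes that this rule or the search for similar profiles names are not reported here.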

Additional observations from a re-analysis of the deposited data

Results flagged for a closer look

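2 genes near the 10 are on the longer gene list only, so no comparison used them, and in some samples their counts exceeded the 3 that a count of 0 allows. Spry3, a Sprouty inhibitor of FGF signalling, had 42 counts in young replicate 2, 18 in young replicate 3, 45 in old replicate 2 and 14 in old replicate 3. Fgf2os, a transcript from the opposite strand at Fgf2, had 6 counts in young replicate 2 and 4 in old replicate 3, and 2 each, not above that limit, in young replicate 3 and old replicate 2. Old and young samples overlapped for both genes, and no test was run.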

How the results depend on the processing

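Between old and young, 1 gene was called in edgeR, 2 without TMM, 219 in DESeq2, and 0 without the gene list term, on the longer list alone, in Myog-positive cells or in Myog-negative cells (501, 998, 376 and 434 at an unadjusted p under 0.05). Leaving out single samples gave 0 to 3 (0 without young replicate 1 or old replicate 1, with 1002 and 998 at an unadjusted p under 0.05, and 3 without young replicate 3). Without young replicate 1 or old replicate 1, the list term fits the 1 remaining shorter-list sample exactly. These fits are therefore in effect the fit on the longer list, not separate checks. The 2 analyses by Myog class were added after seeing the data. The fold change of Fgf2 turned to -1.57 without the list term, -0.96 without the deepest 10% of cells, -0.17 in Myog-negative cells, and ran from -1.33 to 1.11 without single samples. Leaving out single samples took Fgfr1 from -0.50 to 0.15, Fgfrl1 from -0.27 to 0.52 and Fgf7 from -1.90 to 0.034. Fgfrl1 turned to -0.0063 after chromosome centring, Ndst2 to 0.020 in Myog-positive cells and Adam10 to 0.0049 without TMM.

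Whether the replicate numbers pair the samples was not settled. Deviations of same-numbered samples from their group means correlated at 0.378, 0.224 and -0.081, and those of differently numbered samples at -0.408 to 0.276. Young replicate 2 correlated better with old replicate 3 (0.276) than with old replicate 2. The samples numbered 1 also share the shorter gene list, and deviations within a group depend on each other. A fit with the replicate number as a block called 1 gene, as without it, and gave -0.45 for Fgf2.

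In the class comparisons, Fgfrl1 by Myog ran from -0.00029 to 0.24 without single samples, Fgf2 by mitotic genes from -0.059 to 0.094 (-0.00032 in DESeq2) and Fgf7 from -0.054 to 0.12. Shares of cells without overlap counted 2 genes, and 2 to 5 without single samples (5 without old replicate 1). Groups separate more easily when a sample is left out, and no count over all genes was made, so nothing is read from this rise. The old minus young difference in share ran from -9.12 to 3.64 points for Fgfr1, -0.503 to 1.36 for Fgfrl1 and -3.64 to 0.829 for Fgf2, and was -0.0117 for Klb over all barcodes. For the within-sample ratios, 1 was without overlap, and 1 to 5 without single samples (5 without old replicate 3), with the same limit. Old minus young ran from -0.22 to 0.32 for Fgfr2, -0.18 to 1.08 for Fgfr4, -0.22 to 0.15 for Fgf2, -0.52 to 0.11 for Fgf7 and -0.33 to 0.99 for Fgf21 by Myog, and from -0.18 to 0.034 for Fgfr1 and -0.23 to 0.17 for Fgf7 by mitotic genes. Without thinning it was -0.038 for Fgfr2 by Myog, and 0.13, 0.018 and -0.080 for Fgfr2, Fgfrl1 and Fgf7 by mitotic genes. The cause of these changes was not tested. The levels of Fgfr3, Kl and Klb, and of Fgfr4 in young samples, rest on few UMIs.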
